A study of Mus musculus with 6 samples.

Results

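The neurofilament subunit genes Nefl, Nefm and Nefh and the internexin gene Ina were examined in adult forebrain cortex of C57BL/6 mice. These 4 genes, of 19938 with a probe set of 1 gene symbol, were chosen by name and with their difference between Dicer KO and control arrays known, so that difference is given here as a description and no test is drawn from it. Animals of the group labelled Dicer KO have the genotype CamKII-Cre/+;Dicer flox/flox, with both alleles of Dicer floxed. Dicer is the enzyme that releases mature microRNAs from their precursors, and the promoter in front of Cre is active in excitatory forebrain neurons. Controls were littermates of 2 kinds, CamKII-Cre/+;Dicer flox/+ animals and others that were +/+;Dicer flox/flox, without a record of which animal is which, so each control carries Cre with 1 floxed allele or floxed alleles with no Cre. Each group has 3 animals, and the total RNA of each was read on its own Affymetrix whole-transcript array. The cortex was taken whole, so cells in which the CamKII promoter is silent contribute to every value, and in such bulk RNA fewer cells of a type cannot be told apart from less RNA per cell. The series title names tau phosphorylation and neurodegeneration after ablation of Dicer in adult forebrain neurons.

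Neurofilaments are the intermediate filaments of mature neurons and fill the axons of large projection neurons, where their number sets axon calibre and with it conduction speed. The light chain encoded by Nefl forms the core of the filament, the medium and heavy chains encoded by Nefm and Nefh add long phosphorylated tails that project sideways, and alpha-internexin, encoded by Ina, is a further subunit of neurofilaments in the central nervous system. The filaments are carried along axons by microtubule motors, are linked to the rest of the cytoskeleton by plakins, and are phosphorylated on their tails by kinases that also act on tau.

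Values are log2 expression from the RMA method, so a difference of 1 is a doubling, and a level of 1 probe set cannot be set against that of another. The 6 arrays had medians between 7.13 and 7.22. Dicer1 read 9.58, 9.68 and 9.46 in the arrays labelled Dicer KO and 9.17, 9.21 and 9.18 in the controls, above rather than below them. Which exons its probe set reads is not known here, so Dicer1 checks neither the deletion nor the labels. All 9 measured excitatory neuron markers had a mean at or above the median gene, with means between 8.85 and 13.03. Here and below, a level set beside the median gene describes array signal only. It does not show that a transcript is present or how abundant it is. Eif2s3y on the Y chromosome was at 9.07 to 9.29 in control array 2 and in arrays 1 and 3 of the group labelled Dicer KO, and at 3.94 to 4.44 in the other 3 arrays, so both sexes are in both groups. Several marker lists differed between arrays. Olfactory bulb markers were 1.09 above the control mean in control array 1, where the other 5 arrays lay between -0.61 and -0.42, and in labelled KO array 3 striatal, microglial and astrocyte markers were 0.73, 0.61 and 0.50 above it. Meningeal fibroblast markers, all 7 with a difference above 0, averaged 0.39, 0.049 and 0.25 in labelled KO arrays 1 to 3, above every control (-0.066 to 0.033). Choroid plexus markers averaged 0.17 and 0.30 in labelled KO arrays 1 and 2 and at most 0.038 elsewhere. Of these 7 markers, 4 had a difference below 0, and the median difference was -0.027. Ttr, named after its value was seen, read 9.85, 10.95 and 8.30 in labelled KO arrays 1 to 3 and 8.18 to 8.73 in the controls. Oligodendrocyte markers averaged 0.16, 0.37 and 0.41 in labelled KO arrays 1 and 3 and control array 3, against -0.26 to -0.20 in the rest. What part these cell sources have in the results below was not tested.

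Nefl and Nefm are immediate neighbours among the protein-coding genes of chromosome 14 in the RefSeq annotation of GRCm38.p6, with Dock5 on the far side of Nefl and Adam7 on that of Nefm. Nefh is on chromosome 11, between Thoc5 and Ap1b1, and Ina on chromosome 19, between Nt5c2 and Pcgf6. The RefSeq promoter sequences available here, on GRCm38.p6, hold 1 of the 4 members, Ina. As a description that does not use the array values, the 250 bases before the start of Ina (chr19:47014431-47014680, plus strand) were searched on both strands. The motifs were the TATA box TATAAA, the CCAAT box CCAAT, the Sp1 box GGGCGG and the core of the cyclic AMP response element, TGACGT. Only the Sp1 box matched, at 2 places, both as its reverse complement, shown in capitals:
Ina: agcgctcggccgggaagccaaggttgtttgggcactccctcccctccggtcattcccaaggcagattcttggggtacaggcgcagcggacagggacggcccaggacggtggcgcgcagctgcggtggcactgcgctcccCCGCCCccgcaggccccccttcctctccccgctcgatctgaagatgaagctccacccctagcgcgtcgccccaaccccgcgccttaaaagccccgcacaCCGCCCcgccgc
The Sp1 box is present in 32.7% of the 32851 promoter windows of this length, TATAAA in 12.4%, CCAAT in 33.8% and TGACGT in 6.47%. No motif overlapped another.

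Nefl, the light chain on which the other chains assemble, read 10.6, 10.6 and 10.3 in labelled KO arrays 1 to 3 and 11.1, 11.2 and 11.1 in control arrays 1 to 3. All arrays labelled Dicer KO were below all controls, with a gap of 0.52 between the nearest arrays of the groups. That gap exceeds the whole range within either group, 0.31 among the labelled KO arrays and 0.091 among the controls. The group means were 10.5 ± 0.17 and 11.2 ± 0.051 (SD, n = 3 each), a difference of -0.67 ± 0.10 (SE), or 1.59-fold.

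Nefm, the medium chain, read 9.81, 10.2 and 9.80 in the arrays labelled Dicer KO and 10.7, 10.7 and 10.4 in the controls. The groups again did not overlap, but the gap was 0.17, smaller than the range of 0.40 among the labelled KO arrays and of 0.35 among the controls. Labelled KO array 2 was the high one of its group and control array 3 the low one of the other. The means of 9.94 ± 0.23 and 10.6 ± 0.20 (SD, n = 3 each) differed by -0.66 ± 0.14 (SE), 1.58-fold, close to the value of its chromosomal neighbour Nefl.

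Nefh, the heavy chain with the longest tail, read 8.94, 9.004 and 9.52 in the arrays labelled Dicer KO and 9.45, 9.26 and 9.56 in the controls. Here the groups overlapped: labelled KO arrays 1 and 2 were below every control, and labelled KO array 3 was above control arrays 1 and 2. The means were 9.15 ± 0.32 and 9.42 ± 0.15 (SD, n = 3 each), a difference of -0.27 ± 0.16 (SE), 1.21-fold. Single arrays moved this value more than that of any other subunit. Leaving out the third array labelled Dicer KO gave -0.45, and leaving out the first gave -0.16.

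Ina has 2 probe sets, and the one with the higher mean represents it here. It read 10.65, 10.67 and 11.05 in the arrays labelled Dicer KO and 11.04, 11.19 and 11.15 in the controls, so that labelled KO array 3 passed control array 1 by 0.014 and the other 2 labelled KO arrays lay below all controls. The means were 10.8 ± 0.23 and 11.1 ± 0.078 (SD, n = 3 each), a difference of -0.34 ± 0.12 (SE), 1.26-fold. The other probe set, which the platform annotation ties to the RefSeq transcript and to the same cDNA clone, read 10.5, 10.5 and 10.8 against 10.9 in each control, with no overlap of the groups and a difference of -0.28 ± 0.098 (SE). Both probe sets put labelled KO array 3 highest of its group.

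**Figure D1:**
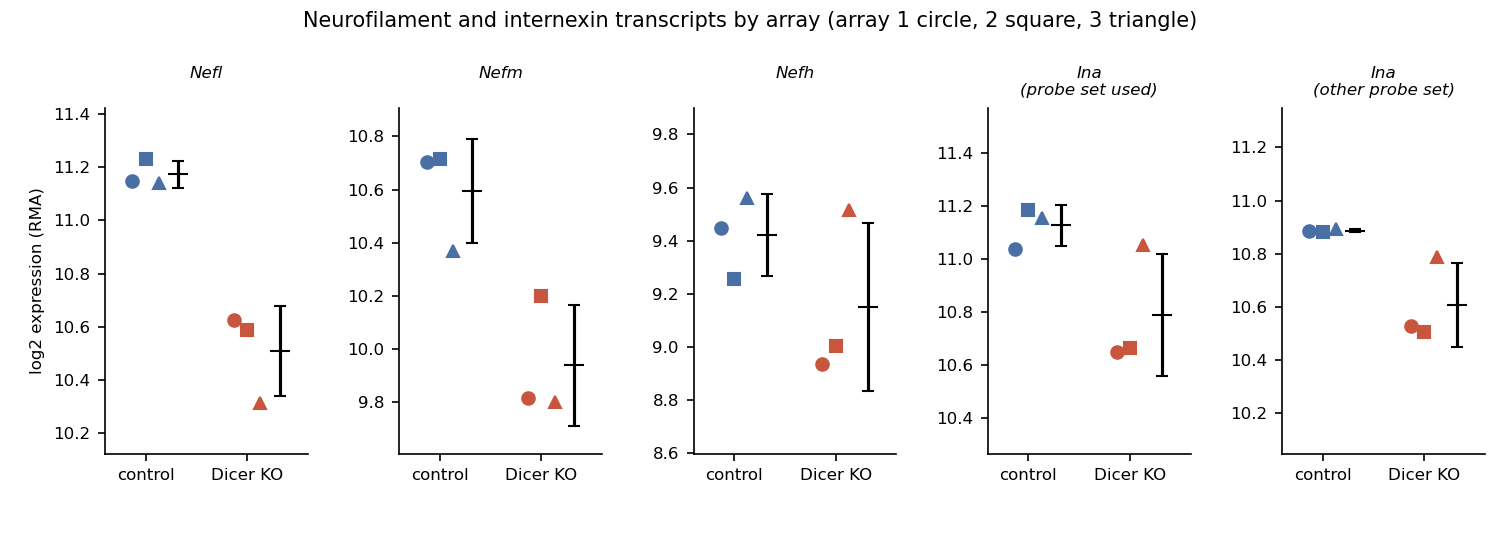
Log2 expression of Nefl, Nefm, Nefh and both probe sets of Ina in each array; symbols mark array 1 (circle), 2 (square) and 3 (triangle), and the black bar beside each group is its mean ± SD (n = 3). Each panel spans the same number of log2 units. The groups are apart for Nefl and Nefm, while labelled KO array 3 lies among or near the controls for Nefh and Ina.

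With limma's fit over all genes, 1 of the 4 members, Nefl, was among the genes with an adjusted p under 0.05, a call that 56 genes in all received (0.281% of 19938), 38 of them downward (0.191%). Nefl and Nefm, 2 of the 4 members, lay wholly below the controls, as did 11.0% of all genes. The members were picked with this contrast known, so neither count is read as support. Limma called Nefl without labelled KO array 3, where 129 genes were called, but neither it nor any other gene without any other single array (2197 to 2532 genes then had an unadjusted p under 0.05) or with sex as a covariate (2292 such genes).

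The subunits differed from each other mostly in labelled KO array 3. Relative to the control mean it stood at -0.86 for Nefl and -0.80 for Nefm, but at -0.074 for Ina and 0.093 for Nefh. In labelled KO arrays 1 and 2 all 4 subunits lay between -0.78 and -0.39, and there Nefl (-0.55 and -0.59) was nearer to Nefh (-0.48 and -0.42) and Ina (-0.48 and -0.46) than to Nefm (-0.78 and -0.39). After each profile was centred on its own mean, the root mean square distance over the 6 arrays, which includes the difference between the groups, was 0.128 between Nefh and Ina, 0.160 between Nefl and Nefm, and from 0.285 to 0.382 for the other pairs. Labelled KO array 3 is also the array with the high averages of astrocyte, microglial and striatal markers. Striatal markers were at 0.060 and -0.025 in labelled KO arrays 1 and 2 and between -0.12 and 0.10 in the controls. The part of these lists in the subunits' values was not tested.

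**Figure D2:**
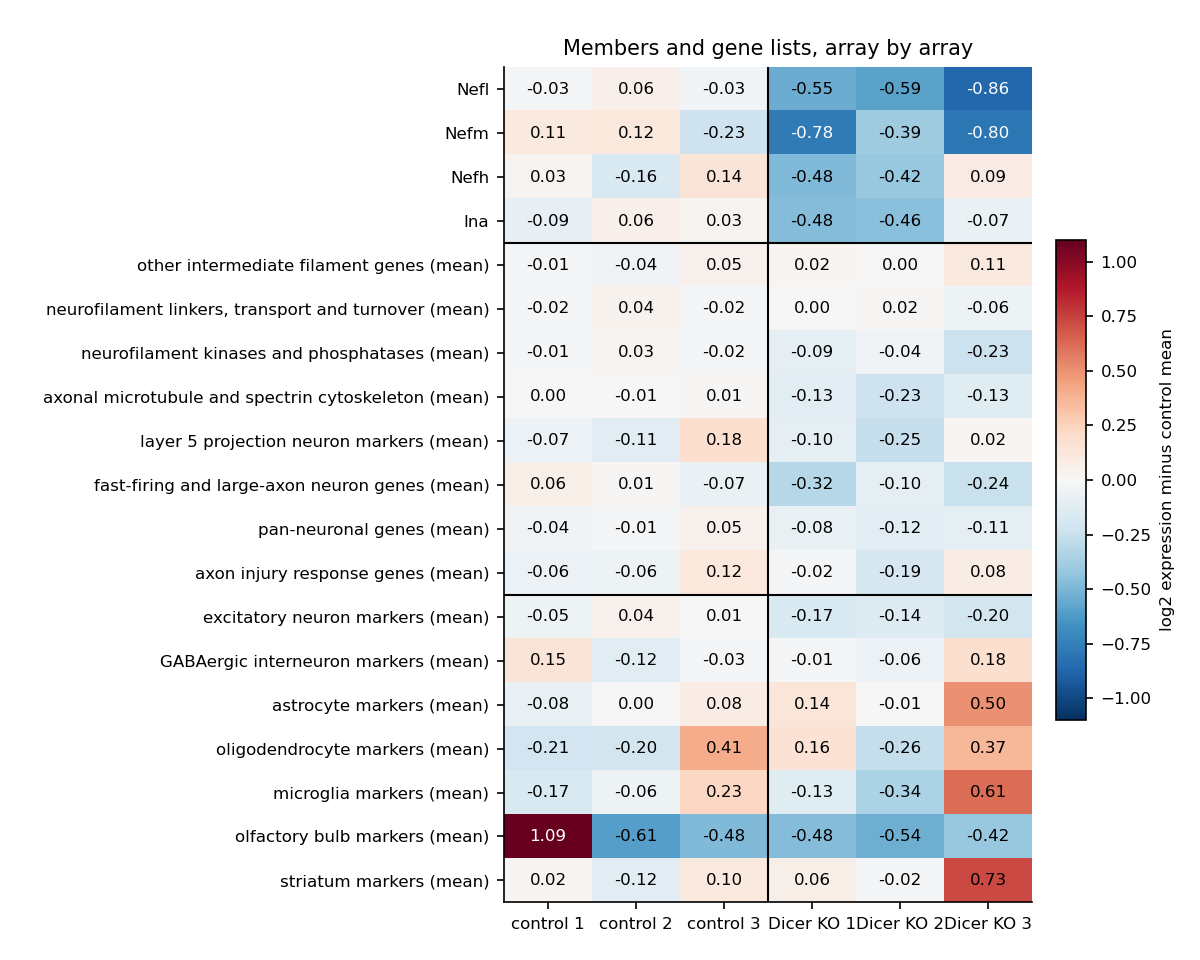
Log2 expression minus the control mean for each subunit (top block), for the mean of each gene list (middle block) and for the mean of marker lists (bottom block), with arrays as columns; the printed number is the value that the colour shows. Nefl and Nefm are at -0.39 or below in each array labelled Dicer KO, and Nefh and Ina depart from them in labelled KO array 3.

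The subunits were also set beside 12 pan-neuronal genes, such as Rbfox3, which encodes the nuclear antigen NeuN. Those averaged -0.083, -0.12 and -0.11 in labelled KO arrays 1 to 3, smaller departures than those of Nefl and Nefm in the same arrays. That average mixes 9 genes with a difference below 0 and 3 above it. The subunits were chosen with their difference known, so the comparison is a description and no test. With the mean of the pan-neuronal genes subtracted in each array, the differences were -0.56 for Nefl, -0.55 for Nefm, -0.17 for Nefh and -0.23 for Ina, and the groups stayed apart for Nefl alone. For Nefm, labelled KO array 2 and control array 3 then stood at -0.27 each. Excitatory neuron markers averaged between -0.20 and -0.14 in the arrays labelled Dicer KO and between -0.053 and 0.045 in the controls. Of these 9 markers, 7 had a difference below 0 and 2 above it, the median was -0.13, and the groups did not overlap for Nrgn alone. Among them Nrgn, which encodes the postsynaptic protein neurogranin and is named after its value was seen, read 11.27, 11.31 and 11.22 against 11.97, 11.90 and 11.76 and fell, at -0.60 ± 0.088 (SE; limma adjusted p = 0.0413), a call lost, as all were, without any 1 array other than labelled KO array 3 and with sex as a covariate. Neurod6, a transcription factor of these neurons named in the same way, was at -0.45 ± 0.15 (SE; adjusted p = 0.216). The part of these markers in the members' differences was not tested.

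Within each sex the 4 differences were also below 0, though with 1 or 2 arrays per group. In females, with labelled KO array 2 against control arrays 1 and 3, they were -0.56 for Nefl, -0.33 for Nefm, -0.50 for Nefh and -0.43 for Ina. In males, with labelled KO arrays 1 and 3 against control array 2, they were -0.76, -0.91, -0.031 and -0.34 in the same order. For Nefh the male value averages labelled KO arrays on either side of the control, 8.94 and 9.52 against 9.26. Without both arrays of the highest marker list means, labelled KO array 3 and control array 1, the differences were -0.58 for Nefl, -0.53 for Nefm, -0.44 for Nefh and -0.51 for Ina.

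Other intermediate filament genes were examined as a list of 16, all measured. Over all genes, 0.281% passed the threshold. Vim, which encodes the vimentin of astrocytes and vascular cells, was the 1 gene of this list past the threshold over all genes, and it rose. It read 10.4, 10.4 and 10.4 in the arrays labelled Dicer KO and 9.94, 9.82 and 9.87 in the controls, a difference of 0.52 ± 0.080 (SE; limma adjusted p = 0.0480). The groups did not overlap, and the call was lost without any 1 array other than labelled KO array 3, with sex in the model (adjusted p = 0.146) and with median centring (adjusted p = 0.0608) or a second quantile normalization (adjusted p = 0.0539). Astrocyte markers, a list that includes the filament gene Gfap, averaged 0.14, -0.0070 and 0.50 in labelled KO arrays 1 to 3. Of the 10 astrocyte markers, 8 had a difference above 0 and 2 below it, with a median of 0.094. Endothelial and mural markers averaged 0.081, 0.17 and 0.12 in the same arrays, and meningeal fibroblast markers 0.39, 0.049 and 0.25. In the controls these lists lay between -0.080 and 0.079, -0.077 and 0.13, and -0.066 and 0.033, and their part in the value of Vim was not tested.

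Gfap, the astrocytic filament protein, read 9.10, 8.92 and 10.4 against 8.34, 8.35 and 8.55, with no overlap. Its difference of 1.07 ± 0.33 (SE) did not pass (limma adjusted p = 0.196), and without labelled KO array 3 it was 0.60 (adjusted p = 0.0550). Prph, the peripherin of peripheral and some central neurons, was dim at 6.60, 6.51 and 6.58 against 6.65, 6.75 and 6.97, at -0.23 ± 0.10 (SE; adjusted p = 0.355), and at -0.14 without control array 3. Sync, encoding syncoilin, was at -0.16 (adjusted p = 0.437). Nes, the nestin of progenitors, was at -0.056 (adjusted p = 0.861) and Synm, the synemin that copolymerises with other filament proteins, at 0.0043 (adjusted p = 0.989). The signs of Nes and Synm changed in some of the alternative fits. The median difference of the 16 genes was -0.042, with 10 below 0, beside a median of -0.0092 and 52.7% below 0 over all genes.

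**Figure D3:**
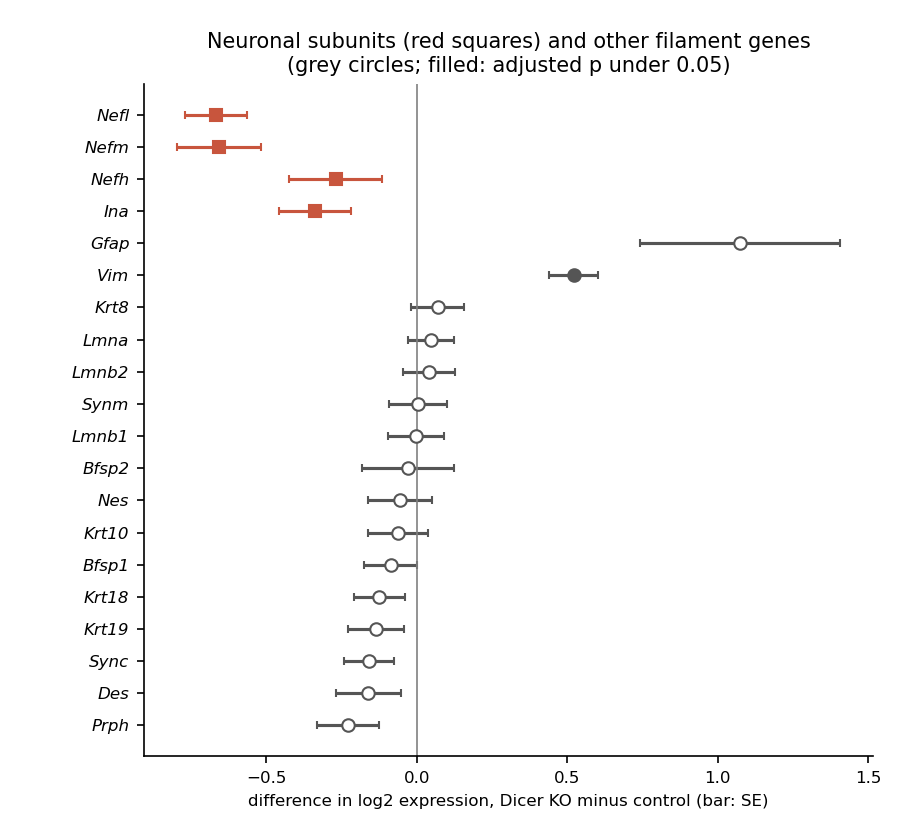
Difference in log2 expression, Dicer KO minus control, with its standard error, for the 4 neuronal subunits (red squares) and the 16 other intermediate filament genes (grey circles, filled where the adjusted p was under 0.05). The 4 neuronal subunits, chosen with this difference known, lie between -0.67 and -0.27, and Gfap and Vim lie farthest above 0. Nefh, at -0.27 ± 0.16 (SE), is next to Prph, at -0.23 ± 0.10 (SE). Of the 16 other genes, 6 have a mean at or above the median gene.

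Of 20 listed genes that link, carry or turn over neurofilaments, 16 were measured and 0 passed the threshold. Limma called 56 genes over the whole table (0.281%), where 2871 had an unadjusted p under 0.05. The median difference of the 16 genes was -0.023, with 9 below 0, beside 52.7% of all genes. Kif5a, the neuronal kinesin heavy chain that moves neurofilaments outward, read 12.3, 12.1 and 12.3 against 12.4, 12.5 and 12.5 and was at -0.22 ± 0.089 (SE; adjusted p = 0.301). Dst, a plakin that ties filaments to actin and microtubules, was at -0.20 ± 0.083 (SE; adjusted p = 0.328), and Dynll1, a light chain of the inward motor dynein, was at -0.16 (adjusted p = 0.443). Kif5a, Dst and Dynll1 were the 3 of the 16 genes wholly below the controls, where 11.0% of all genes were. Mtmr2, a phosphoinositide phosphatase whose loss harms peripheral nerve, was at 0.35 ± 0.13 (SE; adjusted p = 0.256). Plec, the cytolinker plectin, was at 0.027 ± 0.20 (SE; adjusted p = 0.970), with labelled KO array 3 and control array 3 both low at 8.96 and 9.03, and its sign turned in some alternative fits.

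Kinases and phosphatases that act on neurofilament tails were listed as 18 genes, of which 13 were measured. Of these, 0 passed the threshold, beside 0.281% of all genes. The median was -0.12, with 11 of the 13 below 0, beside 52.7% of all genes. The Cdk5 activator genes gave the smallest p of the list: Cdk5r2, encoding p39, was at -0.35 ± 0.10 (SE; adjusted p = 0.178) and Cdk5r1, encoding p35, at -0.32 ± 0.099 (SE; adjusted p = 0.196). In both, every array labelled Dicer KO was below every control, as in 3 of the 13 genes in all and in 11.0% of the whole table. Cdk5 itself, the kinase they activate, read 10.8, 10.9 and 10.3 against 10.8, 10.8 and 10.8, at -0.12 ± 0.14 (SE; adjusted p = 0.749). Labelled KO array 3 alone was low, and without it Cdk5 was at 0.046, while without labelled KO array 2 it was at -0.23. Ppp1ca, a catalytic subunit of protein phosphatase 1, was at -0.20 and the stress kinase gene Mapk9 also at -0.20 (adjusted p = 0.364 and 0.426), and both were at -0.13 without labelled KO array 3.

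The other cytoskeleton of the axon was represented by 18 genes of microtubules and of the spectrin and ankyrin lattice. None passed the threshold in limma's fit over all genes, which 0.281% of all genes passed. Of the 18, 14 were below 0, beside 52.7% of all genes, and the median was -0.13. Map1a, a microtubule-associated protein of mature neurons, read 10.6, 10.7 and 10.7 against 11.28, 11.17 and 11.01, at -0.49 ± 0.096 (SE; adjusted p = 0.0780), and it passed with the dimmer genes left out (adjusted p = 0.0451) and with array weights (adjusted p = 0.00762). Tuba4a, an alpha-tubulin of adult neurons, was at -0.42 ± 0.11, Stmn3 at -0.42 ± 0.12 and Stmn2 at -0.40 ± 0.10 (SE; adjusted p = 0.140, 0.184 and 0.131); both stathmins bind tubulin dimers. In these 4 genes the groups did not overlap. Of the 18 genes, 6 lay wholly below the controls, beside 11.0% of all genes. Mapt, which encodes tau, read 9.69, 9.56 and 9.79 against 9.71, 9.78 and 9.74, at -0.062 ± 0.090 (SE; adjusted p = 0.810), with overlap. The value of Mapt rests on single arrays: it was -0.12 when labelled KO array 3 was left out and -0.00016 when array 2 of that group was. Stmn3 was at -0.23 without both labelled KO array 3 and control array 1.

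Neurofilament protein marks large layer 5 neurons and fast-firing cells in cortex, so markers of both were listed. Of 15 measured layer 5 markers 0 passed, 11 were below 0 and the median was -0.098. Over all genes, 0.281% passed and 52.7% were below 0. Thy1, a surface glycoprotein of projection neurons, was at -0.31 ± 0.10 (SE; adjusted p = 0.222) and Pcp4, a calmodulin regulator of deep layers, at -0.38 ± 0.14 (SE; adjusted p = 0.250). These were the 2 of the 15 wholly below the controls, where 11.0% of all genes were. Crym, a thyroid hormone-binding protein, was at -0.36 ± 0.15 and Parm1 at -0.26 ± 0.16 (SE; adjusted p = 0.326 and 0.522), both with overlap. Single arrays moved these values: Crym was at -0.20 without control array 3, Pcp4 at -0.25 without labelled KO array 2, and Parm1 at -0.43, -0.12 and -0.14 when labelled KO array 3, labelled KO array 2 and control array 3 were left out in turn. The layer 5 list averaged -0.096, -0.25 and 0.023 in labelled KO arrays 1 to 3 and between -0.11 and 0.18 in the controls, and its part in the subunits' values was not tested.

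Among 12 measured genes of fast-firing and large-axon neurons, 11 were below 0 with a median of -0.16, and Hapln4 was the 1 past the threshold. Over all genes, 52.7% were below 0 and 0.281% passed. Hapln4, a link protein of the perineuronal net, read 8.71, 9.23 and 9.10 against 10.03, 9.99 and 9.95 and fell. Its difference was -0.98 ± 0.13 (SE), with a limma adjusted p of 0.0344. This call was lost without any 1 array other than labelled KO array 3 and with sex in the model (adjusted p = 0.126). The others of smallest p were the sodium channel gene Scn1a at -0.35 ± 0.13, the potassium channel subunit gene Kcnab2 at -0.19 ± 0.096 and the vesicle protein gene Vamp1 at -0.28 ± 0.14 (SE; adjusted p = 0.273, 0.417 and 0.408). Without labelled KO array 3 Kcnab2 was at -0.11 and Vamp1 at -0.17, and without labelled KO array 2 Vamp1 was at -0.44. Pvalb, the calcium buffer of fast-spiking interneurons, was at -0.052 ± 0.10 (SE; adjusted p = 0.866) and turned to 0.025 without labelled KO array 1, and it was -0.14 when labelled KO array 3 was left out and -0.020 when control array 1 was.

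The pan-neuronal list had 12 measured genes, 0 past the threshold, 9 below 0 and a median of -0.12. For this list and the injury list below, the shares over all genes were 0.281% past the threshold and 52.7% below 0. Eno2, the neuronal enolase, was at -0.25 ± 0.084, the SNARE gene Snap25 at -0.21 ± 0.079, the RNA-binding protein gene Elavl4 at -0.24 ± 0.098 and the calcium sensor gene Vsnl1 at -0.22 ± 0.088 (SE; adjusted p between 0.220 and 0.303). In these 4 of the 12, named for their small p, each labelled KO array lay below each control, beside 11.0% of all genes. Syt1, the calcium sensor of synaptic vesicles, named after its value was seen, was on the other side without overlap, at 13.4 in each labelled KO array against 13.3, 13.3 and 13.2 (0.13 ± 0.078, SE; adjusted p = 0.499). Neurofilament transcripts are known to be reduced in axotomised neurons, and of 14 genes of the axon injury response 0 passed, 10 were below 0 and the median was -0.036. Sox11, a transcription factor of injured and young neurons, was at 0.44 ± 0.13 and Vip, a neuropeptide also made by interneurons, at 0.32 ± 0.12 (SE; adjusted p = 0.196 and 0.256). The growth arrest gene Gadd45a was at -0.40 ± 0.16 and the neuropeptide gene Npy at -0.32 ± 0.12 (SE; adjusted p = 0.295 and 0.270). Without control array 3 Gadd45a was at -0.21, and without control array 1 Vip was at 0.21. Atf3, a transcription factor induced in injured neurons, had a mean level of 7.09 and was at -0.033 ± 0.21 (SE; adjusted p = 0.964).

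**Figure D4:**
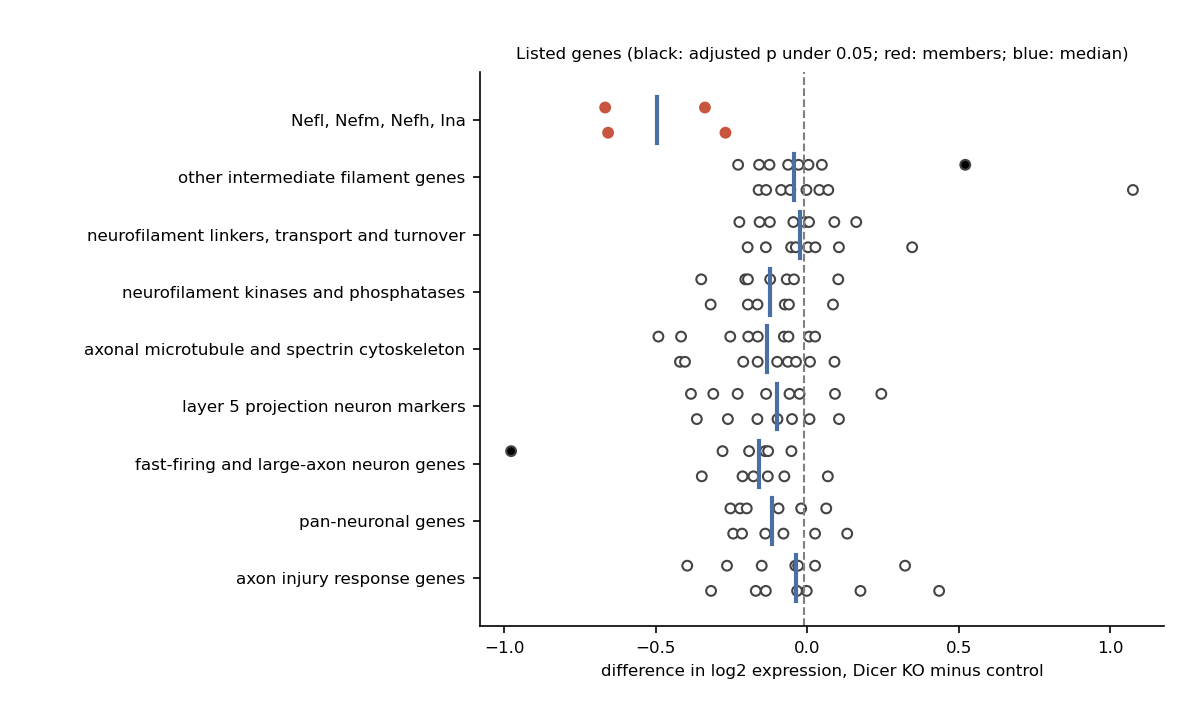
Each circle is 1 gene's difference in log2 expression, Dicer KO minus control; rows are the members (red) and the 8 gene lists, black fill marks an adjusted p under 0.05, the blue bar is the median of the row and the dashed line the median of all genes. The list medians lie between -0.16 and -0.023, and Vim and Hapln4 are the 2 filled genes.

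To name the genes whose profile was most like that of the subunits, the 4 centred profiles were averaged and every other gene of at least median level (9965 genes) was ranked by its root mean square distance from that average over the 6 arrays. The nearest were Ndufb2, an accessory subunit of respiratory complex I (0.0434), and Mrps18a, a protein of the mitochondrial ribosome (0.0479). Next came Slc25a22, a mitochondrial glutamate carrier (0.0563), the protein kinase C gene Prkcb (0.0571), Cycs, which encodes cytochrome c (0.0573), and the gene model D130043K22Rik (0.0602). The median distance of the ranked genes was 0.274. The subunits themselves were farther from their own average, at 0.131 for Ina, 0.169 for Nefl, 0.189 for Nefm and 0.206 for Nefh. Among all 19938 genes they ranked 383, 1276, 2146 and 3380 by this distance, so a gene near the average need not be near any 1 subunit. This ranking favours genes with a difference near the mean of the 4 subunits, and the 6 named were between -0.54 and -0.40. They were chosen for that likeness, so their own differences are no test of it.

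**Figure D5:**
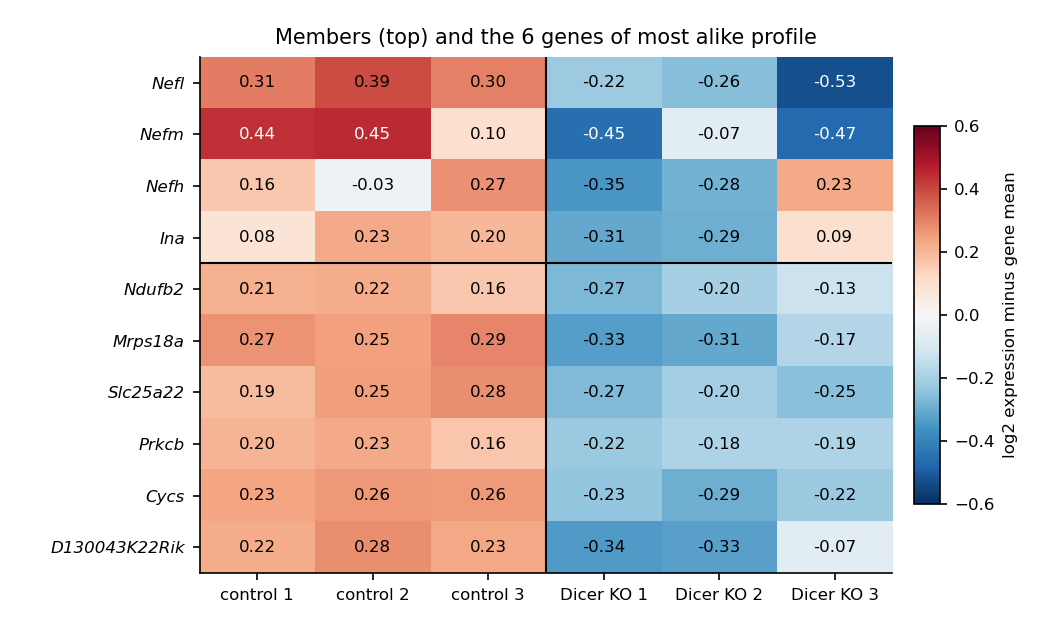
Log2 expression minus the gene's mean over the 6 arrays, for the 4 subunits (above the line) and the 6 genes of most alike profile (below it); the printed number is the value that the colour shows. The 6 genes are above 0 in all controls and below 0 in all arrays labelled Dicer KO, as Nefl and Nefm are, while Nefh and Ina are above 0 in labelled KO array 3.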

How the data were processed

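The authors deposited 1 table of log2 expression, 1 value per probe set and array. Per the submitters' processing notes the tools were RMA and limma, with no version. The sources used here do not state the background step, the probe set definition or a genome build. RMA draws differences of dim transcripts towards 0, and the arrays' nearly equal quantiles would hide a shift shared by most genes. No detection call was used, so signal over background is unknown, and 3 arrays per group limit the precision.

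Groups and array numbers come from the sample titles, which call the arrays biological replicates. Of 35557 rows, 21789 have 1 gene symbol in the platform's annotation; 1621 without a single symbol and 12147 unlisted rows were left out. For 21698 probe sets the symbol was renamed or kept through its gene identifier, and 91 without a match kept the platform's symbol. The probe set of highest mean stood for each of 19938 genes. Every pair of arrays differed in at least 35523 rows.

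Differences were fitted over all genes by lmFit and eBayes of limma 3.58.1 (R 4.3.3), with group as the only term, two-sided, with Benjamini-Hochberg adjustment and a threshold of 0.05; errors of differences are moderated standard errors. The exact permutation test of 3 against 3 arrays cannot go below p = 0.1 and was not used. The steps were tested on simulated data. The members and the gene lists were chosen with earlier results of these data known. Named genes are the members, the called genes and up to 4 of smallest p per pathway list, a fixed set and the 6 of most alike profile. Rbfox3, Atf3, Nrgn, Neurod6, Syt1, Ttr, Tyrobp and Tmem119 were added after their values were seen. Some listed genes were not analysed here. Alternatives were leaving out each array, a block for the array number, median centring, a second quantile normalization, dimmer genes left out, averaged probe sets, a trended and robust prior, array weights and sex as a covariate. Leaving out 2 arrays together was added after the data were seen.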

Additional observations from a re-analysis of the deposited data

How the results depend on the processing

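The differences of Nefl, Nefm, Nefh and Ina were below 0 in all 15 alternative fits, and between single arrays left out they ranged from -0.72 to -0.57, -0.79 to -0.59, -0.45 to -0.16 and -0.47 to -0.27. Without both labelled KO array 3 and control array 1, a choice made after the data were seen, Ina moved to -0.51, 12 genes were called over the table, and no member and no gene of the 8 lists. The 56 calls over all genes became 215 with the replicate block, 178 with the dimmer genes left out, 1116 with array weights and 0 with sex as a covariate, and 0 to 129 with single arrays left out. Of the 4 members, 2 were called with the replicate block, 3 with array weights, 0 with sex as a covariate and 0 to 1 with single arrays left out. Called genes of the 8 lists numbered 2, against 1 with median centring or a second quantile normalization, 6 with array weights, 0 with sex as a covariate and 0 to 2 with single arrays left out. The cause of these shifts was not tested. The array number marks no litter or batch in the labels, so the numbers were not taken as pairs in the main fit. Deviations of same-numbered arrays from their group means correlated across genes with r = 0.089, 0.17 and 0.29. Each was the highest for its labelled KO array, while differently numbered arrays had r from -0.23 to 0.094. By control array the match was not complete, since control array 1 had r = 0.094 with labelled KO array 2 and 0.089 with labelled KO array 1. Whether the numbers mark pairs was not tested. Signs turned for Synm, at 0.0043, with median centring (-0.023), a second quantile normalization (-0.0054), sex as a covariate (-0.028) and without single arrays (-0.050 to 0.062), for Plec (-0.14 to 0.23), Nes (-0.11 to 0.037), Pvalb (-0.14 to 0.025) and Cdk5 (-0.23 to 0.046) without single arrays, and without both arrays named above for Synm (-0.0048) and Cdk5 (0.019), where Plec was at 0.30. The number of arrays is the limit on precision.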
